A study of Rattus norvegicus with 24 samples.

Results

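Glutamate exposure was examined in rat cortical cultures that had all been given AH609, an agent known here by its code name alone. The comparison held 6 of the 24 RNA-seq libraries of the series, 3 from AH609 cultures in medium with 250 μM glutamate and 3 from AH609 cultures in fresh growth medium. Both groups received AH609, so the comparison shows the glutamate response in its presence and not the effect of AH609. Members were chosen by their titles, which spell 1 of the glutamate libraries AH609_glutmate2, because the treatment field of the glutamate libraries reads only Glutamate. Cells were grown for 8 days before the exchange of medium, and the wells were then imaged for 4 h. Neither the time at which RNA was taken nor the strain or age of the rats is given in the labels, and the dose and timing of AH609 are not given either. The other cultures received DMSO, the solvent control, or the agents IS141 or AH236, each in both media with 3 libraries a group. Whether replicates came from separate cultures is not labelled, so every p-value is set by a spread among libraries that may be technical.

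Glutamate is the main excitatory transmitter of the cortex. Excess glutamate holds NMDA receptors open, lets calcium into neurons and can kill them, a process called excitotoxicity. Calcium entry also switches on fast-acting transcription factor genes, whose products then alter the expression of later genes. The count table names genes by Ensembl ID alone, and 0 of its 32754 IDs could be matched to a symbol in the reference used here. Gene names, marker genes of the labelled cortical cells and promoter sequences were therefore not analysed here, and genes are described by size, direction and level of change.

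The AH609 libraries held between 22509400 and 35496447 counts, which was also the range of the whole series. Replicates lay close together. Over the 12169 genes whose mean reached 1 log2 CPM (CPM is the count relative to the library total, after TMM scaling, which corrects for library composition), the median gene differed between 2 AH609 replicates in medium by 0.075 to 0.084 on the log2 scale. For the 3 pairs of glutamate libraries this value was 0.078 to 0.083, and for the 9 pairs of a medium with a glutamate library it was 0.329 to 0.354. Between 11.2% and 12.9% of these genes differed at least 2-fold across the media, against at most 0.255% between replicates. The 6 libraries thus fell into their labelled media with no overlap by this measure. No pair of replicates agreed within sampling noise, with a chi-square per gene of at least 8.03.

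The first question was how glutamate changed the transcriptome of AH609 cultures. Of 15908 genes tested, 61.3% were called, at an adjusted p under 0.05 in edgeR's quasi-likelihood test. Higher in glutamate were 4782 genes, or 30.1%, and lower were 4970, or 31.2%. A change of 2-fold or more was found for 1488 rises, or 9.35% of the genes tested, and 936 falls, or 5.88%. The 3 glutamate libraries lay entirely above or entirely below the 3 medium libraries for 10979 genes, which was 69.0% of those tested. In bulk RNA, fewer cells of a type and less RNA per cell cannot be told apart, and this holds for every change below.

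**Figure D1:**
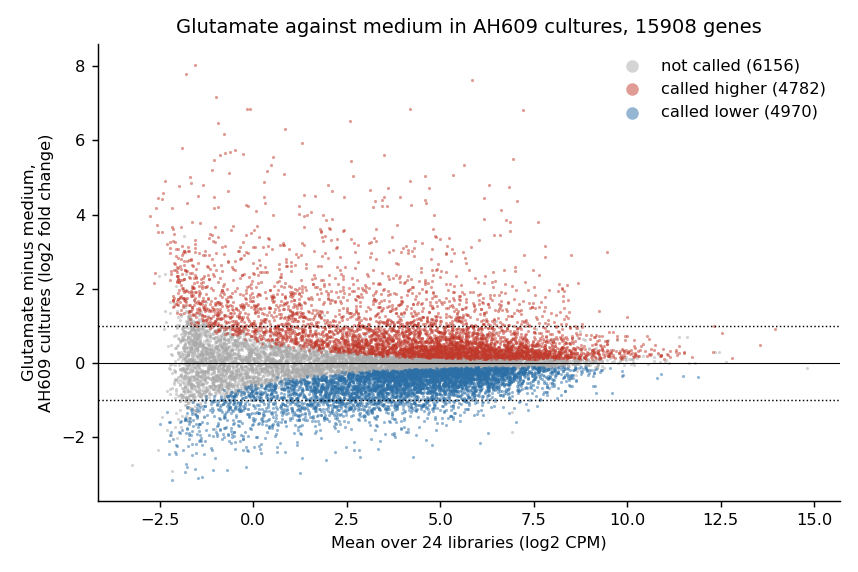
Log2 fold change of each of 15908 genes (glutamate minus medium in AH609 cultures, vertical axis) against its mean level over all 24 libraries (log2 CPM, horizontal axis), with dotted lines at 2-fold. Genes called higher (4782) and called lower (4970) are similar in number, while the cloud reaches further above 0 than below it.

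Rises and falls were alike in number but not in size. The median fold size was 1.53 for genes that rose and 1.47 for genes that fell. A change of 4-fold or more was called for 501 rises but 75 falls, and of 8-fold or more for 202 rises but 3 falls. By fitted folds, 83 rises and 0 falls were past 16-fold (edgeR; DESeq2 gave 81 and 0), and 34 of the rises were past 32-fold. Each of these counts of rises includes 2 genes with 0 counts in all 3 AH609 medium libraries, for which a fitted fold is no bound. With both set against a floor of 3 counts over the medium group, 83 rises were still past 16-fold and 32 past 32-fold. Of the 202 genes that rose at least 8-fold, 200 had no overlap between the media, as did 97.4% of all genes called higher. Among all genes tested, 34.1% had the 3 glutamate libraries above the 3 medium libraries. The 202 were chosen on the same libraries, which favours such separation, so the count is no support for the rises. With library totals alone as the scaling, the median over all genes of the log2 fold change moved from 0.00 to -0.17, and the calls became 3245 higher against 6785 lower. That scaling gave 1204 rises and 1399 falls past 2-fold, which turned the order of 1488 and 936 found with TMM. The excess of large rises stayed under that scaling, with 425 rises and 127 falls past 4-fold and 166 rises and 8 falls past 8-fold.

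The groups of genes by size of change also differed in level. The 202 genes with a rise of at least 8-fold had a median level of 0.489 CPM in AH609 medium and 7.67 CPM in glutamate, and 60.4% of them were under 1 CPM in medium. Genes that rose less than 2-fold, 3294 in number, had a median of 33.0 CPM in medium and 44.2 CPM in glutamate, and 3.1% of them were under 1 CPM in medium. A change this small can be called only where the standard error is small, which favours genes with more counts. Of the 6156 genes not called, 28.6% were under 1 CPM in medium. The 75 genes that fell at least 4-fold went from a median of 1.35 CPM to 0.288 CPM. A threshold on the fold by itself favours genes with a low level in medium, and a gene with few counts in medium could pass the filter on low counts through its glutamate libraries, so these levels are a description with no test. CPM is not corrected for gene length, so these are levels of counts and do not rank genes by transcript number.

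The share of a library's counts that each group took gives the size of the change in counts, for groups formed by the fold change per gene. The shares are of library totals, without TMM scaling. These shares describe groups chosen on the same libraries and carry no test. The 202 genes with a rise of at least 8-fold took 0.0823% ± 0.01 (SD, n = 3) of the counts in medium and 1.35% ± 0.0379 (SD, n = 3) in glutamate. All 1488 genes with a rise of at least 2-fold took 2.65% ± 0.206 (SD, n = 3) and 7.88% ± 0.177 (SD, n = 3). The 936 genes with a fall of at least 2-fold went from 1.57% ± 0.029 (SD, n = 3) to 0.584% ± 0.0228 (SD, n = 3). Genes with smaller changes moved by more in sum. The rises of less than 2-fold took 39.1% ± 0.191 (SD, n = 3) in medium and 45.5% ± 0.215 (SD, n = 3) in glutamate. The falls of less than 2-fold took 24.4% ± 0.446 (SD, n = 3) and 16.6% ± 0.283 (SD, n = 3). The 6156 genes not called also lost share, from 32.2% ± 0.204 (SD, n = 3) to 29.5% ± 0.059 (SD, n = 3). Shares within a library depend on each other, so a lower share is not by itself a fall.

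The balance of rises and falls differed between bands of mean level over the 24 libraries. That mean includes the AH609 libraries compared here and the glutamate libraries of the other treatments. A large rise by itself thus lifts a gene's band and a large fall lowers it, so the bands are a description with no test. For the 2126 genes that averaged 100 CPM or more over the 24 libraries, 46.8% were higher and 23.3% lower in glutamate. Among 6792 genes between 10 and 100 CPM the order was the other way round, with 31.6% higher and 39.7% lower, and among 4417 genes between 1 and 10 CPM 25.6% were higher and 33.2% lower. Under 1 CPM, 507 of 2573 genes were higher and 308 lower. The order in the highest band turned with library totals as the scaling, to 27.5% higher and 41.3% lower, and the lowest band was then even, at 413 genes higher and 411 lower. Falls of at least 2-fold were rare among the genes with most counts, with 10 against 127 rises above 100 CPM under TMM and 25 against 102 under library totals. The precision differed between bands as well, with a median standard error of the log2 fold change of 0.429 under 1 CPM and 0.054 at 100 CPM or more.

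**Figure D2:**
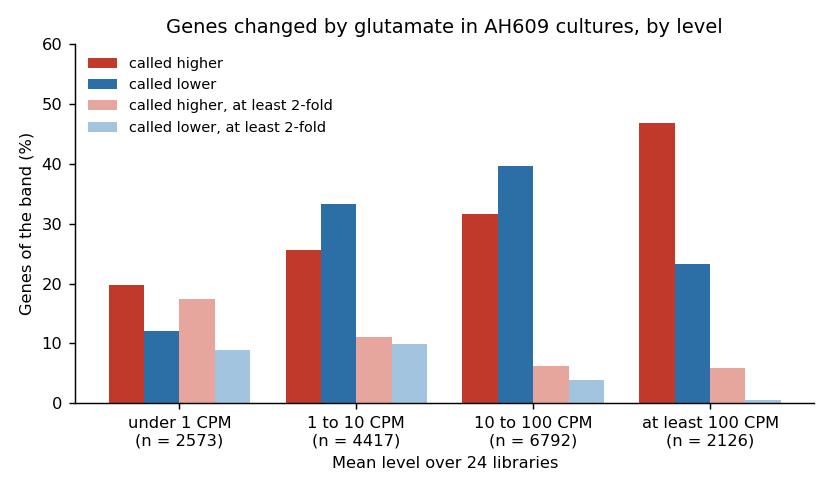
Share of genes (%) called higher or lower in glutamate in AH609 cultures, and called with at least a 2-fold change, in 4 bands of mean level over the 24 libraries; n is the number of genes in each band. The share called higher is 46.8% in the band of at least 100 CPM and 19.7% under 1 CPM, with TMM scaling.

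Some genes were counted in a single medium. In the whole table, 1733 genes had 0 counts in all 3 AH609 medium libraries and at least 1 count in glutamate, and 133 of these were counted in all 3 glutamate libraries. Set against a floor of 3 counts over the medium group, 74 of the 1733 were at least 2-fold higher in glutamate and 3 were at least 8-fold higher, the highest of them at least 26.7-fold. In the opposite direction, 1022 genes were counted in medium and had 0 counts in all 3 glutamate libraries, and 37 of these were counted in all 3 medium libraries. Of the 1022, 25 were at least 2-fold lower in glutamate by the same floor and none reached 8-fold, the most being at least 5.41-fold lower. Most of these genes were near the limit of detection, with a median of 1 count summed over the group in both directions. Only 2 of the 1733 genes and none of the 1022 passed the filter on low counts, and so nearly all large changes in the tested table were between levels above 0. These bounds cover counting error only.

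Where the mean reached 1 log2 CPM and the media did not overlap, the largest rise in AH609 cultures belonged to ENSRNOG00000046667. Its level was 4.03, 3.53 and 5.42 CPM in the 3 medium libraries and 919, 861 and 810 CPM in the 3 glutamate libraries. The glutamate libraries lay far above the medium libraries, with a ratio of the means of 199. The log2 fold change was 7.64 ± 0.44 (SE; edgeR adjusted p = 1.16e-10). The next was ENSRNOG00000014350, with 1.28, 1.0 and 2.54 CPM in medium and 182, 189 and 180 CPM in glutamate. Its medium libraries differed among themselves by more than its glutamate libraries in proportion, and the rise of 6.84 ± 0.19 on the log2 scale (SE; edgeR adjusted p = 1.5e-16) lay between 6.57 and 7.33 over 13 alternatives. The SE is derived from the test's F and may understate the uncertainty of so large a change. The largest fall belonged to ENSRNOG00000007332, which had 4.87, 6.16 and 5.50 CPM in medium and 0.882, 0.434 and 0.742 CPM in glutamate. These glutamate levels rest on 23, 9 and 25 counts, and the log2 fold change was -2.96 ± 0.20 (SE; edgeR adjusted p = 1.67e-12). ENSRNOG00000033026 followed, with 8.31, 10.7 and 10 CPM in medium and 1.61, 1.73 and 1.45 CPM in glutamate, which fell by 2.61 ± 0.15 on the log2 scale (SE; edgeR adjusted p = 8.77e-14). The media did not overlap for any of the 4 genes, as the rule that chose them required. Some genes with a lower mean changed by more.

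**Figure D3:**
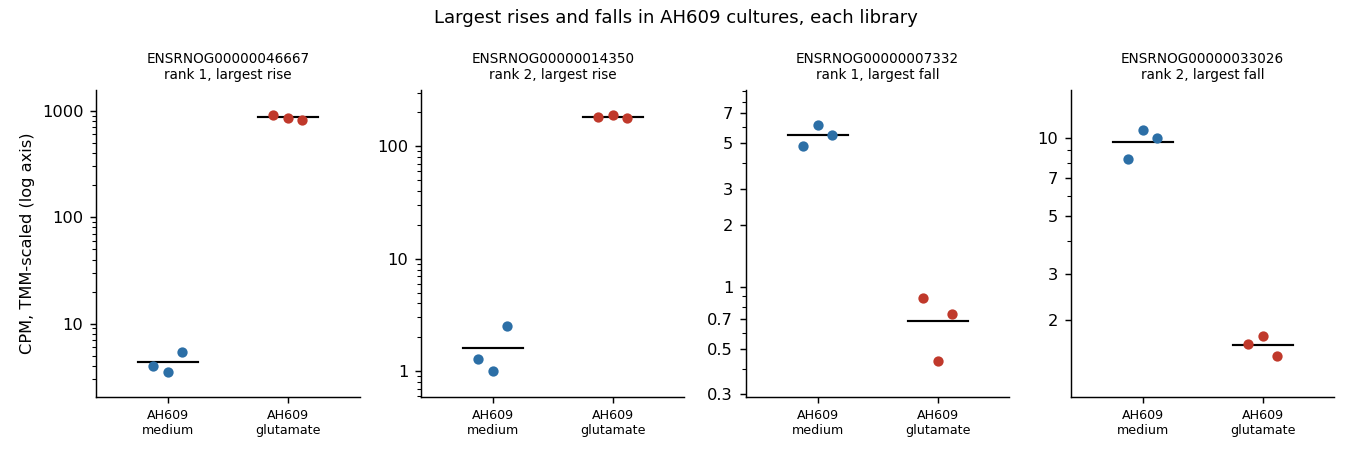
Level in CPM on a log axis of the genes with the largest rises and falls in AH609 cultures, with each point a library (3 in medium, 3 in glutamate) and the bar their mean. ENSRNOG00000046667 stands at 3.53 to 5.42 CPM in medium and 810 to 919 CPM in glutamate.

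The same 4 genes moved in the same direction in every other treatment. The log2 fold change of ENSRNOG00000046667 was 7.26 in DMSO, 6.35 in IS141 and 8.48 in AH236 cultures, and that of ENSRNOG00000014350 was 6.23, 5.83 and 7.15 in the same order. ENSRNOG00000007332 changed by -2.55, -2.64 and -2.33, and ENSRNOG00000033026 by -3.10, -3.03 and -2.52. For ENSRNOG00000046667 the value in DMSO cultures depended on DMSO medium replicate 1. The 3 DMSO medium libraries had 10.7, 1.82 and 1.69 CPM, against 673, 803 and 700 CPM in DMSO glutamate. Leaving out replicate 1 moved the DMSO value from 7.26 to 8.69 on the log2 scale, and the difference AH609 minus DMSO went from 0.37 to -1.05 ± 0.29 (SE; edgeR adjusted p = 0.102). With all libraries, none of the 4 differences between AH609 and DMSO cultures was called, with edgeR adjusted p-values of 0.947, 0.706, 0.814 and 0.659.

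The next question was whether genes that respond to glutamate elsewhere in the series did so in AH609 cultures. A group of genes raised at least 2-fold in all of the DMSO, IS141 and AH236 cultures was formed after the data had been seen, and it held 922 genes. Their fold changes in AH609 cultures come from libraries that were not compared in forming the group, although all 24 libraries share the filter, scaling and spread of the fit. In AH609 cultures 911 of the 922 were called higher, where 30.1% of all genes tested were, none was called lower, and 902 rose at least 2-fold. Their median log2 fold change was 1.95 against 0.00 for all genes tested, and their 5% and 95% quantiles were 1.15 and 4.62. Of 442 genes lowered at least 2-fold in all 3 other treatments, 436 were called lower in AH609 cultures, where 31.2% of all genes were, none was called higher, and 420 fell at least 2-fold. Their median was -1.42.

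**Figure D4:**
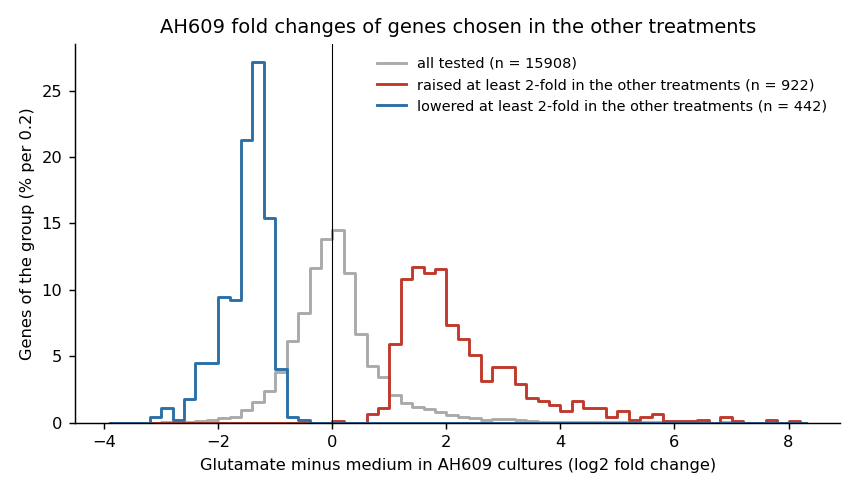
Distribution of the log2 fold change (glutamate minus medium) in AH609 cultures, as a share of genes per step of 0.2, for all 15908 genes tested and for genes raised (922) or lowered (442) at least 2-fold in DMSO, IS141 and AH236 cultures. The raised genes centre on 1.95 and the lowered genes on -1.42, with all genes centred on 0.00.

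Read the other way, the strong changes of AH609 cultures were found in the other cultures too. Of the 202 genes that rose at least 8-fold with AH609, 192 were called higher in DMSO, 197 in IS141 and 199 in AH236 cultures, and none was called lower. Of the 75 genes that fell at least 4-fold, 65, 68 and 63 were called lower in the same order, and none was called higher. The share of all genes called in either direction was 59.1% in DMSO, 59.1% in IS141 and 60.6% in AH236 cultures. The counts above are of 1 direction, for which the share of all genes is lower. In DMSO cultures 29.1% were called higher in the fit without DMSO medium replicate 1, which tested 16119 genes. The counts above come from the fit of all 24 libraries. Shares of all genes in 1 direction are not given here for IS141 or AH236 cultures, or for falls, so those counts are a description. Because these genes were chosen for large values in AH609 cultures, smaller values elsewhere are not a sign of a weaker response there.

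The difference between the glutamate effect in AH609 cultures and that in the other treatments was then tested directly. Against the mean effect of DMSO, IS141 and AH236 cultures, edgeR called 0 of 15908 genes. An unadjusted p under 0.05 was found for 498 genes, or 3.13%, and DESeq2 called 0 with 365 at an unadjusted p under 0.05. The absence of calls does not show equal responses, so the intervals are given. For the 12169 genes whose mean reached 1 log2 CPM, the 95% interval of the difference lay wholly within 1.5-fold in either direction for 90.9% and within 2-fold for 98.3%. Among all genes tested, including those with few counts, these shares were 70.3% and 83.1%. The intervals are per gene and not adjusted for their number.

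Against the DMSO cultures alone, 4 genes were called, or 0.0251% of those tested. The signed difference of the log2 fold changes, AH609 minus DMSO, was positive for 2 of them, or 0.0126%, and negative for the other 2, again 0.0126%. An unadjusted p under 0.05 was found for 1151 genes, or 7.24%. For the 12169 genes whose mean reached 1 log2 CPM, the 95% interval of this difference lay within 1.5-fold for 82.2% and within 2-fold for 95.9%. The median half-width of these intervals was 0.24 on the log2 scale, against 0.20 in the comparison with all 3 treatments.

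Both genes with a positive difference were called higher in glutamate in AH609 cultures and were not called higher in DMSO cultures. The rises were not particular to AH609. ENSRNOG00000006118 changed by 0.72 on the log2 scale in AH609, and was also called higher in IS141 (0.66) and AH236 cultures (0.40). ENSRNOG00000008415 was also called higher in AH236 cultures (0.23, as in AH609) and was not called in IS141 cultures (-0.06). ENSRNOG00000006118 had 11.7, 12.7 and 13.4 CPM in AH609 medium and 19.9, 19.0 and 23.2 CPM in AH609 glutamate. In DMSO cultures it had 17.2, 16.3 and 16.2 CPM in medium and 15.7, 15.3 and 15.3 CPM in glutamate. The AH609 cultures thus started below and ended above the DMSO cultures, and the difference was 0.82 ± 0.12 (SE; edgeR adjusted p = 0.0082). For ENSRNOG00000008415 the AH609 libraries had 24.9, 26.2 and 23.9 CPM in medium and 32.3, 27.0 and 28.7 CPM in glutamate, while the DMSO libraries had 30.8, 27.8 and 29.0 CPM and 22.6, 23.4 and 22.6 CPM. It was called higher in glutamate in AH609 cultures (log2 fold change 0.23, edgeR adjusted p = 0.00949) and lower in DMSO cultures (-0.35, edgeR adjusted p = 0.000241), a difference of 0.59 ± 0.11 (SE; adjusted p = 0.0398).

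The 2 genes with a negative difference moved in the same direction in both cultures. ENSRNOG00000054314 fell from 57.4, 60.7 and 56.7 CPM to 14.7, 11.1 and 11.9 CPM in AH609 cultures, and from 61.1, 71.5 and 68.3 CPM to 27.1, 25.1 and 24.3 CPM in DMSO cultures. It thus fell further in AH609 cultures, with AH609 and DMSO levels furthest apart in glutamate, and the difference of the effects was -0.81 ± 0.13 (SE; edgeR adjusted p = 0.0154). Its log2 fold change of -2.21 in AH609 cultures stood beside -2.37 in IS141 and -2.37 in AH236 cultures, against -1.39 in DMSO. ENSRNOG00000005964 rose in AH609 cultures from 156, 151 and 164 CPM to 601, 610 and 598 CPM, and in DMSO cultures from 101, 84.8 and 95.8 CPM to 502, 524 and 491 CPM. AH609 cultures were above DMSO cultures in both media and further so in medium, and the difference of the effects was -0.49 ± 0.08 (SE; edgeR adjusted p = 0.011). The log2 fold change of ENSRNOG00000005964 was 1.94 in AH609, 1.69 in IS141, 2.35 in AH236 and 2.43 in DMSO cultures.

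**Figure D5:**
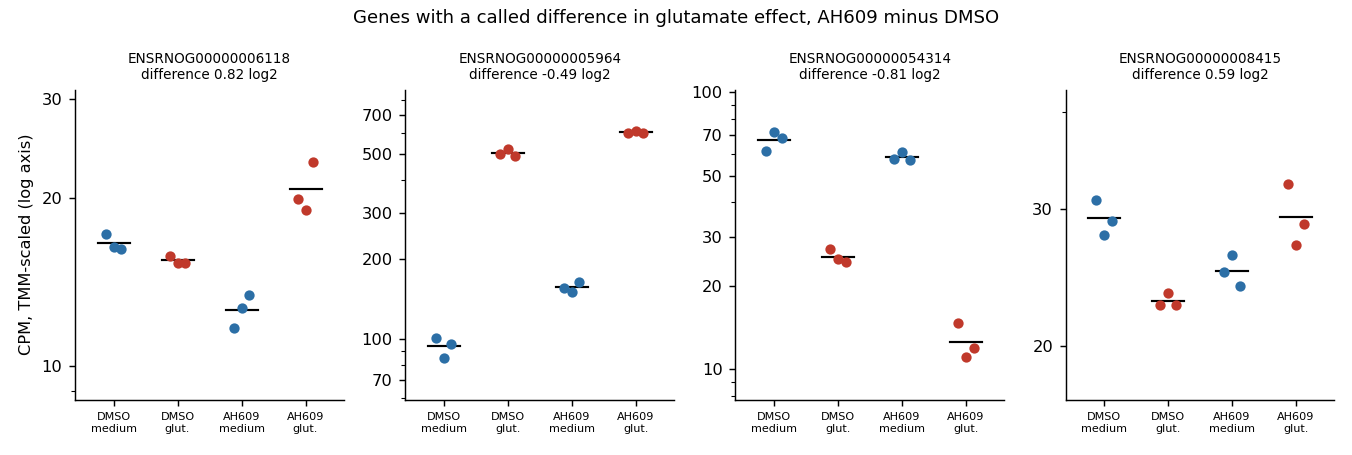
Level in CPM on a log axis of the 4 genes whose glutamate effect differed between AH609 and DMSO cultures, with each point a library (3 a group; glut. is glutamate) and the bar the group mean. ENSRNOG00000008415 goes from 23.9 to 26.2 CPM in AH609 medium up to 27.0 to 32.3 CPM in AH609 glutamate, and the other way in DMSO cultures.

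These calls depended on the libraries in the fit. In a fit of the 12 AH609 and DMSO libraries alone edgeR called 0 genes, with 813 at an unadjusted p under 0.05, and without AH609 glutamate replicate 3 it also called 0. DMSO medium replicate 1 stood apart from its replicates, with a median difference of 0.167 and 0.188 on the log2 scale to the other DMSO medium libraries, against 0.061 to 0.119 for the 22 other replicate pairs of the series. Without it the difference AH609 minus DMSO was positive for 35 genes, or 0.217% of 16119 tested, and negative for 179, or 1.11%, and the 4 genes above were among them. With any other of the 12 compared libraries left out, the counts lay between 0 and 3 and between 0 and 8. The comparison with all 3 other treatments still called 0 genes without DMSO medium replicate 1, with 804 at an unadjusted p under 0.05.

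The 179 genes with a negative difference in that fit were more often apart between AH609 and DMSO cultures in medium than in glutamate. Choosing a negative difference by itself favours AH609 levels above DMSO in medium and below DMSO in glutamate, so this is a description only. For 172 of them the AH609 cultures in medium lay above the DMSO cultures in medium, and 139 were called in that comparison, in which 6.22% of all genes were. In glutamate, AH609 cultures lay above DMSO cultures for 79 of the 179, and 47 were called, against 6.17% of all genes. Glutamate raised 136 of the 179 in DMSO cultures, where it raised 29.1% of all genes, and 106 in AH609 cultures, where it raised 31.5%, with median log2 fold changes over the 179 of 1.05 and 0.40. Of the 35 genes with a positive difference, 33 were higher in AH609 than in DMSO cultures in glutamate, and 26 rose in AH609 cultures against 12 in DMSO cultures. All of these counts describe genes chosen by the same contrast, so nothing is read from their distance to the shares of all genes, and they rest on 2 DMSO medium libraries.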

How the data were processed

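RNA-seq libraries of rat cortical cells were made with the RNeasy Mini Kit and a directional NEBNext Ultra II kit, per the labels' protocols. The authors deposited 1 table of raw whole-number counts per Ensembl gene for the 24 libraries. The genome build Rnor_6.0 and the tools RSEM 1.3.3, STAR 2.7.8a, FastQC 0.11.8, cutadapt 2.3 and bcl2fastq are named, per the submitters' processing notes. Annotation, strand setting and the part each tool played were not given in the sources used here. Since RSEM works with estimates, the whole numbers may be rounded, and counts of genes that share reads with copies or overlapping genes are uncertain.

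The tests were made with edgeR 4.0.16 (R 4.3.3). The filter filterByExpr, given the 8 groups, left 15908 of 32754 genes. After TMM scaling, 1 robust quasi-likelihood fit held 1 mean per group for all 24 libraries. Benjamini-Hochberg adjustment ran over all tested genes of a comparison, with calls under 0.05. The SE is the size of the log2 fold change divided by the root of the test's F. It is thus derived from the test, and for very large changes it may differ from the standard error of the estimate. Folds are ratios of fitted values, and genes at 0 in a group were set against 3 counts over that group. The fit was tested on simulated data. DESeq2 1.42.0, RLE factors, library totals, no filter, a replicate block, smaller fits and each library left out were alternatives.

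The members, gene groups and lists were chosen with earlier results of these data known. The 35 lists of gene symbols, and the part of the naming rule that uses symbols, could not be applied. The rule was therefore used without symbols, with 2 IDs printed per direction: the largest changes among called genes whose mean reached 1 log2 CPM and whose media did not overlap, and the genes called for a difference from DMSO.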

Additional observations from a re-analysis of the deposited data

Results flagged for a closer look

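The glutamate effect differed between AH609 and DMSO cultures by a test of the difference itself for 4 genes, 2 with a positive and 2 with a negative log2 difference (AH609 minus DMSO). The difference on the log2 scale was 0.82 for ENSRNOG00000006118, 0.59 for ENSRNOG00000008415, -0.81 for ENSRNOG00000054314 and -0.49 for ENSRNOG00000005964. Over 18 alternatives the direction held for all 4, but the call at an adjusted p under 0.05 was lost in 2, 10, 4 and 3 of them in the same order. The differences themselves moved little, from 0.73 to 0.88, from 0.51 to 0.64, from -0.94 to -0.74 and from -0.54 to -0.42. In the fit of the AH609 and DMSO libraries alone, where all 4 calls were lost, they were 0.82, 0.59, -0.81 and -0.48, with edgeR adjusted p-values of 0.0845, 0.204, 0.0845 and 0.204. The mean over all 3 other treatments gave no call for these genes, with differences of 0.40, 0.30, -0.17 and -0.21.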

How the results depend on the processing

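The counts of genes that glutamate raised and lowered in AH609 cultures, and of those changed at least 2-fold, stayed within 1.5 times under all alternatives run. Their balance did not, since library totals gave 3245 higher and 6785 lower. That scaling also turned the order of changes of at least 2-fold, from 1488 rises and 936 falls to 1204 and 1399. With 1 library left out the counts ranged from 4336 to 5071 higher and 4618 to 5246 lower, and from 1421 to 1556 rises and 928 to 962 falls of at least 2-fold. The AH609 libraries alone gave 5061 higher and 5118 lower. The genes raised or lowered in the 3 other treatments, an alternative set added after the data had been seen, gave 911 and 436 calls in AH609 cultures, and 955 and 423 without DMSO medium replicate 1. Library totals gave 830 lowered, of a longer group of 847 genes.

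The difference from DMSO cultures, with 2 positive and 2 negative differences (AH609 minus DMSO), was least stable. DESeq2 gave 6 and 22, no filter 3 and 11, library totals 1 and 2, and the AH609 and DMSO libraries alone 0 and 0. With 1 library left out the counts ranged from 0 to 35 and from 0 to 179. The causes were not tested. The difference from the mean of the other treatments gave 0 calls under every alternative.

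Replicate numbers were checked for pairing. Deviations of same-numbered medium and glutamate libraries correlated at 0.069, 0.113 and 0.113 across genes, so the numbers did not meet the criterion of 0.1 in every pair, although each library correlated best with its own number. The title number was then used as a replicate block within DMSO, IS141 and AH609 cultures, with no block for AH236 cultures. In that fit 4900 genes were higher and 5113 lower in AH609 cultures, and 3 positive and 8 negative differences from DMSO were called.

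Depth limited genes under 1 CPM, where the median SE of the difference from DMSO was 0.601.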

Other observations

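Calls in AH609 cultures were mostly calls elsewhere. Of the 9752 genes called, 7204 were called in all 3 other treatments as well, and 7201 of these had the same direction in all 4. A further 399 were called with AH609 and with none of the others, 238 higher and 161 lower. None of the 399 had a called difference from the mean of the other treatments by edgeR, and 91 had an unadjusted p under 0.05, as did 3.13% of all genes tested. Choosing genes called with AH609 alone favours such small p-values, so nothing is read from the 91. The median change of the 399 was 0.58 in size on the log2 scale, and 242 of them had the same direction in all 4 treatments. The share of all genes with the same direction in all 4 was not counted, so the 242 are a description only.

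The concentration of counts in few genes depended on how many genes were taken. The genes that together held 50% of a library's counts numbered 726, 733 and 709 in the AH609 medium libraries and 623, 587 and 618 in the AH609 glutamate libraries, so the media did not overlap. The 100 genes with most counts took 23.7%, 23.5% and 24.8% of the counts in medium and 25.3%, 26.6% and 25.7% in glutamate. For the top 10 genes the shares overlapped, at 8.7% to 10.2% in medium and 9.46% to 11.3% in glutamate. The single gene with most counts took less in glutamate, at 2.32%, 2.38% and 2.43% against 2.83%, 2.6% and 3.31% in medium. With 3 against 3 libraries an exact permutation test cannot go below p = 0.1, and none was run.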
